A study of Homo sapiens with 4 samples.

Results

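RNA-Seq counts of the HOX cluster genes were examined in LNCaP95, an androgen-independent subline of the LNCaP human prostate cancer line, and in LN95(KO), in which UGT2B17 was knocked out with CRISPR. The genes were listed by symbol, with earlier results of these data known. They are 37 named HOX genes of the 4 human clusters (10 HOXA, 9 HOXB, 9 HOXC and 9 HOXD) among the 60880 genes of the deposited table. HOXB13 was not among them. Each group had 2 libraries: LNCaP95 replicates 1 and 2 carry the genotype label WT, and LN95(KO) replicates 3 and 4 the label UGT2B17 KO. Both lines were grown in RPMI1640 with charcoal-stripped serum, which is depleted of steroids, and no agent was added. The cell line label reads LN95 for every library, whereas the text on the series gives LNCaP for the knockout. The labels do not say how many knockout clones were used or whether replicates were separate cultures, so the p-values measure only the spread between these libraries, which may be technical.

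HOX genes encode homeodomain transcription factors that set position along the body axis. They lie in 4 clusters, and their order along each cluster follows the order of their domains in the embryo, from the anterior genes (paralog groups 1 to 3) through the central genes (4 to 8) to the posterior genes (9 to 13). Posterior HOX genes pattern the urogenital tract, from which the prostate arises. HOX proteins bind DNA with TALE homeodomain partners (PBX, MEIS and PKNOX), and cluster activity is kept by Trithorax and MLL complexes and repressed by Polycomb complexes.

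The libraries held 17330338 to 18813193 gene reads. At this depth a count of 0 allows up to 3 counts, or 0.163 to 0.169 CPM (counts scaled by library size), for counting error only. UGT2B17 had 2788 and 2748 counts in LNCaP95 against 21 and 20 in LN95(KO), so the targeted gene followed the labels. Of the prostate luminal markers, 10 of 10 in the files were tested, and their summed level was 3364 to 3376 CPM in LNCaP95 and 3774 to 3983 CPM in LN95(KO). Within that sum 4 were called higher and 1 lower, with log2 fold changes from -1.30 to 4.91. Leukocyte markers summed to at most 0.226 CPM, and the basal markers TP63 and KRT5 had at most 3 counts in a library, while KRT14 had 1 and 2 counts against 17 and 20 and ITGA6, which carried most of the list, 1245 and 1258 against 1939 and 1856. The basal list summed to 67.6 to 68.8 CPM against 103.0 to 110.6 CPM, and both tested members were higher by the adjusted p (KRT14 was called). The fibroblast list, with DCN at 0 counts, summed to 31.2 to 32.3 CPM against 35.0 to 38.1 CPM, with 1 of 4 tested members called higher and 1 lower (log2 fold changes from -7.42 to 1.17). The neuroendocrine list, with CHGA at 0 counts, summed to 7.53 to 8.68 CPM against 2.36 to 2.43 CPM, with 2 of 3 tested members called lower. Reads that did not align made up 3.85% and 3.96% of entries in LNCaP95 against 8.05% and 7.71% in LN95(KO). The part of these differences in the results below was not tested.

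The sequences around a few transcript starts are shown first, for the genes and noncoding RNAs below that were tested and had a window, and for the genes that share those windows. RefSeq promoter windows (250 bases before and 50 after each annotated start, from GRCh38.p14) were on hand for 20 of the 37 HOX genes, as 27 windows, and each matched GRCh37 exactly once. HOXD13 was the only tested HOX gene with an adjusted p under 0.05 that had a window, and HOXC4 was the only other tested gene with one. HOXC4 and HOXC5 have the same RefSeq window, although GENCODE places their starts apart, and HOXC4 is shown as a gene whose difference did not pass the test. Windows of the noncoding RNAs HAGLR and HAGLROS are shown because HAGLR fell the most of the tested transcripts inside the clusters, and HOXD1 is shown because its window lies head to head with that of HAGLR. Each is written 5′ to 3′ on the strand of its gene, with the 50 bases from the annotated start onward in capitals and GRCh37 coordinates.
HOXD13, chr2:176957199-176957498, plus strand: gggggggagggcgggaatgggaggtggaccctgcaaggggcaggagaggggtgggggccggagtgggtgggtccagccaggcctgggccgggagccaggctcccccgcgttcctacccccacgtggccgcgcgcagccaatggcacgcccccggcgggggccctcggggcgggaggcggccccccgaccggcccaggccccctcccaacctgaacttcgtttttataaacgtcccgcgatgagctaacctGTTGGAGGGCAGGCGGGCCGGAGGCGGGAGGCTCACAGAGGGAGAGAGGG
HOXC4 and HOXC5, chr12:54410422-54410721, plus strand: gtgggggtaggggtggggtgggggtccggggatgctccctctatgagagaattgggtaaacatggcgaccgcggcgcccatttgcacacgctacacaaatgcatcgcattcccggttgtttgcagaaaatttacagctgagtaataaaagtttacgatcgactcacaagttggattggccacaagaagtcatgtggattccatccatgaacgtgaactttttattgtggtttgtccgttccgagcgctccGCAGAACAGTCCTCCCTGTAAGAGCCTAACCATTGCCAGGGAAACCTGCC
HOXD1, chr2:177053146-177053445, plus strand: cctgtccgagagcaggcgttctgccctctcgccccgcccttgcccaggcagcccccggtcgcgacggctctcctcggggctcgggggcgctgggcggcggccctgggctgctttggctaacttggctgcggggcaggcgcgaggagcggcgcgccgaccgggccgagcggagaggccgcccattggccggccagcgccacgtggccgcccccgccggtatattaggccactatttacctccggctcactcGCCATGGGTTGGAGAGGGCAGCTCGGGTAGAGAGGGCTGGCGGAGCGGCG
HAGLR, chr2:177053251-177053550, minus strand: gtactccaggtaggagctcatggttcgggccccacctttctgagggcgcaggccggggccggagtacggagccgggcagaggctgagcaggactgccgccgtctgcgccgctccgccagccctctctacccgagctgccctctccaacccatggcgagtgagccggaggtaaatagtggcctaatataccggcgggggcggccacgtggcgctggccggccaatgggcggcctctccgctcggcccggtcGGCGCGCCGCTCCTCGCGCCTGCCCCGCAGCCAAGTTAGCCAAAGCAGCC
HAGLROS, chr2:177042644-177042943, plus strand: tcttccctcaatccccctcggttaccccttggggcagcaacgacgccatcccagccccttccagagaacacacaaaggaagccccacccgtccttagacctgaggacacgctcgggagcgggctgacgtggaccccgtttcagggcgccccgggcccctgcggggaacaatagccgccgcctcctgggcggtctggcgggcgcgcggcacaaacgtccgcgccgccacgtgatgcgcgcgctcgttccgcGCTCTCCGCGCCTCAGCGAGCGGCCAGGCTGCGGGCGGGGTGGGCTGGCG

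The HAGLR window above shares 195 bases with the HOXD1 window on the opposite strand. A HAGLR window from 177052948 to 177053247 shares 102 bases with it. Another HAGLR window, from 177042808 to 177043107, shares 136 bases with that of HAGLROS. GC content was 74.0% for HOXD13, 74.3% for HOXD1, 71.0% for HAGLR, 71.7% for HAGLROS and 51.7% for HOXC4. The HOX gene windows had a median GC content of 58.0% against 58.7% over all 35116 windows, and a median of 22 CpG dinucleotides against 14. AGAACA, one arm of an androgen response element, was found on either strand in 5 of 27 HOX gene windows, with the identical HOXC4 and HOXC5 windows counted separately, among them the HOXC4 window at bases 253 to 258 from its 5′ end, and in 14.8% of all windows. The HAGLROS window held it at bases 65 to 70. TGATTNAT, a PBX and HOX composite site, was found in 2 of 27 (HOXA2 and HOXD11) and in 2.82% of all windows. AGGTCA, one arm of a retinoic acid response element, was found in 0 of 27 and in 13.8% of all windows. No AGAACA, TGATTNAT or AGGTCA was found in the HOXD13 window, which says only that these letters are not in it. No window was on hand for HOXC6, HOXC13, HOXC12, HOXC9, HOXB6, HOXB7 or HOXB9.

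Most HOX genes had no or few counted reads in these cells. Of the 37 genes, 9 had 0 reads in every library (HOXA4, HOXA11, HOXB1, HOXC10, HOXD3, HOXD4, HOXD9, HOXD10 and HOXD11). Another 14 had at most 3 reads in a library and at most 5 in all. These were HOXA2, HOXA3, HOXA5, HOXA6, HOXA7, HOXA9, HOXA13, HOXB2, HOXB3, HOXB4, HOXB5, HOXB8, HOXC5 and HOXD1, and they summed to 10 reads in LNCaP95 against 28 in LN95(KO). Reads on exon bases shared with another gene were not counted. By an annotation later than that of the counts, shared bases made up 67.3% in HOXC5, 62.5% in HOXA7, 60.1% in HOXD1, 47.8% in HOXA4 and 40.1% in HOXA6. Low counts of these genes therefore cover only part of their exons. Only 9 genes passed the low-count filter and were tested: HOXB6, HOXB7, HOXB9, HOXC4, HOXC6, HOXC9, HOXC12, HOXC13 and HOXD13. They held 97.5% of all HOX reads, and 5 of them (HOXC6, HOXC12, HOXC13, HOXB9 and HOXD13) held 86.1%. By cluster, 0 of 10 HOXA, 3 of 9 HOXB, 5 of 9 HOXC and 1 of 9 HOXD genes were tested. The anterior genes of paralog groups 1 to 3 had 2 and 1 reads in LNCaP95 against 4 and 2 in LN95(KO), summed over 7 genes.

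**Figure D1:**
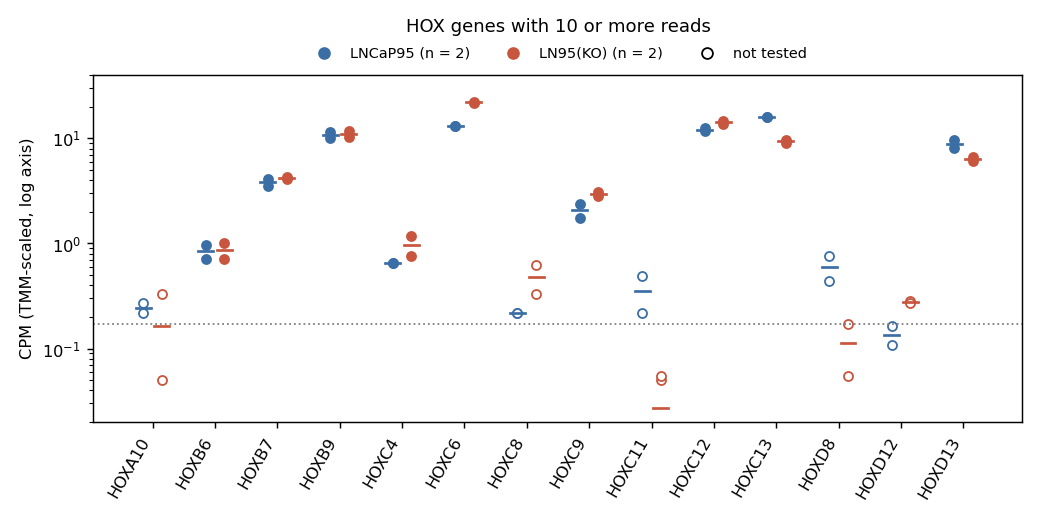
TMM-scaled CPM on a log axis for the 14 HOX genes with 10 or more reads over the 4 libraries, with each library as a point and each group mean as a bar. Libraries at 0 are drawn at 0.05, open points mark genes that were not tested, and the dotted line is the highest level that a count of 0 allows (0.169 CPM). HOXC6 lies higher in both LN95(KO) libraries, and HOXC13 and HOXD13 lower.

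Per length, HOXC13 had the highest level of the HOX genes in LNCaP95 and HOXC6 in LN95(KO). Levels per kilobase of exon not shared with another gene, on the CPM scale (RPKM), were 7.29 ± 0.0396 (SD, n = 2) for HOXC13 in LNCaP95, followed by 4.53 ± 0.0682 for HOXC6, 4.16 ± 0.424 for HOXB9, 3.72 ± 0.156 for HOXC12 and 3.68 ± 0.505 for HOXD13. HOXC6 and HOXB9, and HOXB9, HOXC12 and HOXD13, were separated by no more than about their SD. HOXB7 (2.52 ± 0.292 RPKM), HOXC9 (1.37 ± 0.300 RPKM), HOXB6 (0.483 ± 0.108 RPKM) and HOXC4 (0.286 ± 0.00155 RPKM) followed. In LN95(KO) the order was HOXC6 (7.60 ± 0.164 RPKM), then HOXC12 (4.36 ± 0.215), HOXC13 (4.28 ± 0.237) and HOXB9 (4.27 ± 0.351), which did not differ beyond their SD. HOXB7 (2.76 ± 0.0697 RPKM) and HOXD13 (2.62 ± 0.171 RPKM) also lay within their SD of each other, above HOXC9 (1.98 ± 0.121 RPKM), HOXB6 (0.495 ± 0.123 RPKM) and HOXC4 (0.428 ± 0.130 RPKM). The median over 15479 tested genes with unshared exon bases was 3.90 RPKM in LNCaP95 and 3.95 RPKM in LN95(KO), and each HOX gene lay under 2 times that median.

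The comparison of LN95(KO) with LNCaP95 addresses how loss of UGT2B17 goes with gene expression. With the edgeR quasi-likelihood test and Benjamini-Hochberg adjustment, genes with an adjusted p under 0.05 and more than a 2-fold change were called, and 18.0% of the 15626 genes tested were called (8.86% higher and 9.13% lower in LN95(KO)). None of the 9 tested HOX genes was called: 0 with edgeR and 0 with DESeq2, although 5 had an unadjusted p under 0.05 in edgeR (3 higher and 2 lower). By the adjusted p alone, 3 of 9 (33.3%) passed, 1 higher and 2 lower, where 59.8% of all genes tested did (29.8% higher and 30.1% lower). The libraries of the groups did not overlap for 6 of 9 HOX genes (66.7%) and for 79.8% of all genes tested. The log2 fold changes, LN95(KO) over LNCaP95, ranged from -0.77 to 0.75. Their median was 0.13 against -0.01 over all genes, and their median absolute value 0.49 against 0.37.

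HOXC6, a central gene of the HOXC cluster whose RNA is often raised in prostate cancer, had 245 and 238 counts in LNCaP95 against 396 and 396 in LN95(KO). Both LN95(KO) libraries lay above both LNCaP95 libraries, at 22.0 ± 0.477 against 13.1 ± 0.198 CPM. The level was 1.68-fold higher in LN95(KO) (log2 fold change 0.75, SE 0.09, 95% interval 0.55 to 0.95, edgeR adjusted p = 2.93e-06). HOXC6 alone held 24.4% of all HOX reads. It lies on the plus strand of chromosome 12, positions 54384408 to 54424607 of GRCh37, as 5 exon blocks (ENSG00000197757.7_4). By the annotation used here, 16.1% of its exon bases lie under exons of another gene, where reads could be left out.

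HOXC13, the most posterior gene of the cluster and a regulator of hair and nail keratins, had 293 and 293 counts in LNCaP95 against 172 and 164 in LN95(KO). The groups did not overlap, and the level was 1.70-fold lower in LN95(KO), at 9.35 ± 0.517 against 15.9 ± 0.0866 CPM (log2 fold change -0.77, SE 0.11, 95% interval -1.0 to -0.54, edgeR adjusted p = 1.14e-05). HOXC13 (ENSG00000123364.4_2) occupies positions 54332615 to 54340328 of chromosome 12 on the plus strand, with 2 exon blocks, of which 7.30% of bases are shared. Its antisense partner HOXC13-AS overlaps it.

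HOXD13, the most posterior gene of the HOXD cluster, which patterns digits and the genital tubercle, had 180 and 147 counts in LNCaP95 against 107 and 121 in LN95(KO). The highest LN95(KO) library lay below the lowest LNCaP95 library, and the level was 1.40-fold lower (log2 fold change -0.49, SE 0.15, 95% interval -0.80 to -0.18, edgeR adjusted p = 0.00867). The adjusted p was 0.0826 with DESeq2, 0.140 without LNCaP95 replicate 1 and 0.0673 without LN95(KO) replicate 3, so the difference of HOXD13 rested on both of those libraries and on the tool. HOXD13 (ENSG00000128714.5_2) has 2 exon blocks at positions 176957449 to 176960672 of chromosome 2 on the plus strand, and shares no exon bases with another gene.

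HOXC12, a posterior neighbour of HOXC13, had 231 and 216 counts in LNCaP95 against 261 and 251 in LN95(KO). The groups did not overlap, but the difference did not pass the test (log2 fold change 0.23, SE 0.11, 95% interval 0.0021 to 0.46, edgeR adjusted p = 0.0762). HOXC9, a posterior gene in the middle of the cluster, had 44 and 32 counts against 55 and 52, again with no overlap (log2 fold change 0.53, SE 0.23, 95% interval 0.04 to 1.01, edgeR adjusted p = 0.0597). HOXC4, a central gene at the far end, had 12 and 12 counts against 21 and 14 (log2 fold change 0.57, SE 0.39, 95% interval -0.25 to 1.39, edgeR adjusted p = 0.216). The adjusted p of HOXC9 was 0.0391 with library totals in place of TMM factors and 0.0374 without LNCaP95 replicate 1, and that of HOXC12 was 0.0308 with library totals.

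The tested HOXB genes showed the smallest differences. HOXB9, a posterior gene, had 213 and 183 counts in LNCaP95 against 207 and 190 in LN95(KO), with overlapping groups. Its log2 fold change was 0.04 (SE 0.12, 95% interval -0.22 to 0.30, edgeR adjusted p = 0.813). HOXB7, a central gene, had 65 and 76 counts against 73 and 78 (log2 fold change 0.13, SE 0.18, 95% interval -0.25 to 0.51, edgeR adjusted p = 0.554). HOXB6, its neighbour, had 18 and 13 counts in both groups (log2 fold change 0.03, SE 0.38, 95% interval -0.76 to 0.83, edgeR adjusted p = 0.947), and 33.0% of its exon bases are shared with other genes. The signs of HOXB6 and HOXB9 turned to -0.0051 and -0.0014 under upper-quartile scaling, so neither had a direction. The HOXB7 and HOXB9 intervals lie inside a 2-fold change either way.

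**Figure D2:**
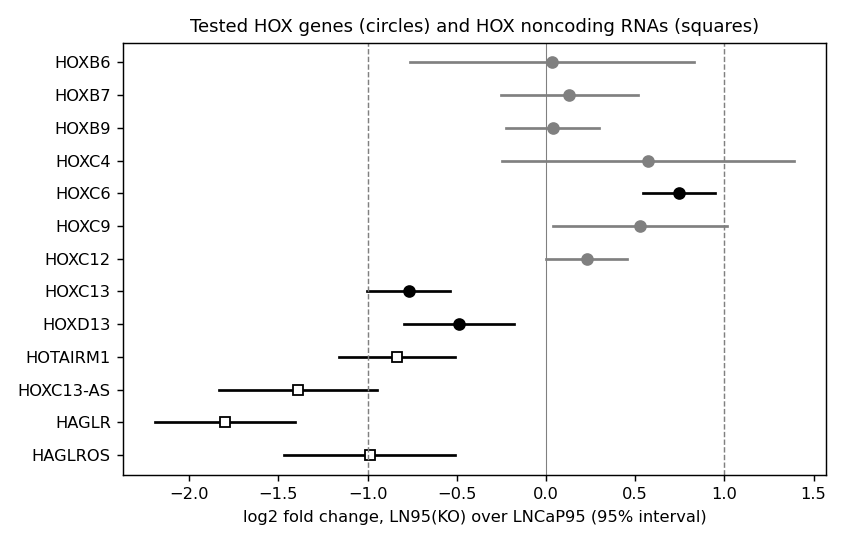
Log2 fold change, LN95(KO) over LNCaP95, with its 95% interval for the 9 tested HOX genes (circles) and the 4 tested HOX noncoding RNAs (squares). Black marks an adjusted p under 0.05 and the dashed lines a 2-fold change. HOXC6 lies at 0.75, HOXC13 at -0.77 and HOXD13 at -0.49, while HAGLR lies at -1.80 and HOXC13-AS at -1.39.

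Another 5 HOX genes had 10 or more reads in all but did not pass the filter. This threshold was chosen after the values were seen. HOXD8, a central gene, had 14 and 8 counts in LNCaP95 against 3 and 1 in LN95(KO), a ratio of scaled counts of 5.38 (LNCaP95 over LN95(KO), exact binomial 95% interval 1.83 to 21.5, counting error only). HOXC11, a posterior gene between HOXC12 and HOXC10, had 9 and 4 counts against 0 and 1, a ratio of 12.7 (1.91 to 540.1). Both groups of either gene were separate at these low counts, but the LN95(KO) values lay near the level that a count of 0 allows. HOXC8 had 4 and 4 counts against 11 and 6 (LN95(KO) over LNCaP95 2.17, interval 0.889 to 5.82), HOXD12 had 3 and 2 against 5 and 5 (2.05, interval 0.637 to 7.63) and HOXA10 had 5 and 4 against 0 and 6 (0.682, interval 0.20 to 2.15). The last 3 intervals include 1. In a fit without the low-count filter, HOXC11 (log2 fold change -3.38, SE 1.13, edgeR adjusted p = 0.0099) and HOXD8 (-2.36, SE 0.72, edgeR adjusted p = 0.00387) were called lower. That fit called 3362 genes over all genes.

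Summed over each cluster, the HOX reads of the lines differed little in amount and somewhat in make-up. All 37 genes summed to 70.1 ± 3.70 CPM (SD, n = 2) in LNCaP95 against 73.9 ± 3.05 CPM in LN95(KO), with overlapping libraries. HOXC held 63.6% of HOX reads in LNCaP95 against 67.8% in LN95(KO), at 44.6 ± 1.33 and 50.1 ± 2.30 CPM. HOXB summed to 15.6 ± 0.762 and 16.4 ± 1.34 CPM and held 22.2% of HOX reads in both lines. HOXD summed to 9.65 ± 1.45 and 6.73 ± 0.327 CPM, from 13.8% to 9.11% of HOX reads, with no overlap between the groups. HOXA summed to 8 and 4 reads in LNCaP95 against 8 and 15 in LN95(KO), under 1% of HOX reads. These sums are descriptions with no test, since a two-sided permutation p cannot go below 0.333 with 2 libraries a group.

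By position, the central genes (paralog groups 4 to 8, 15 genes) summed to 19.4 ± 0.164 CPM in LNCaP95 against 29.1 ± 1.38 CPM in LN95(KO), a ratio of 1.5. The posterior genes (9 to 13, 15 genes) summed to 50.6 ± 3.49 and 44.6 ± 1.59 CPM, a ratio of 0.882. The libraries did not overlap in either sum. HOXC6 made up most of the central sum, and HOXC12, HOXC13, HOXB9 and HOXD13 most of the posterior sum. Within HOXC, the genes from HOXC4 to HOXC9 summed to 16.1 ± 0.720 and 26.5 ± 1.12 CPM (ratio 1.64) and those from HOXC10 to HOXC13 to 28.4 ± 0.615 and 23.6 ± 1.18 CPM (ratio 0.831), a split made after the values were seen.

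**Figure D3:**
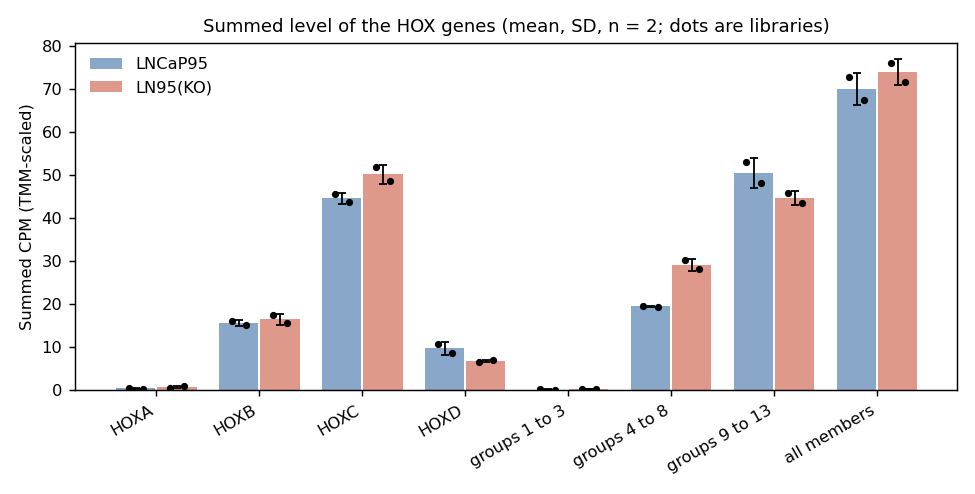
Summed TMM-scaled CPM of the HOX genes by cluster, by paralog group and over all 37, with the mean as bars, the SD as error bars (n = 2) and libraries as dots. The central genes (groups 4 to 8) lie at 19.4 CPM in LNCaP95 against 29.1 CPM in LN95(KO), while HOXA and groups 1 to 3 are near 0.

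The 4 listed noncoding RNAs of the clusters that could be tested were lower in LN95(KO). Of 25 listed symbols, with HAGLR also under an older name, 23 were in the files, 13 had a read and 4 were tested. Of the 4 tested, 4 had an adjusted p under 0.05, each lower in LN95(KO), and 2 were called lower, with edgeR and with DESeq2, where 30.1% of all genes tested were lower by the adjusted p and 9.13% were called lower. An unnamed RNA inside HOXC that was not on the list and was picked out after its values were seen (ENSG00000260597) had 12 and 20 counts against 26 and 23, the other way, and did not pass (log2 fold change 0.64, edgeR adjusted p = 0.116). The median log2 fold change of the 4 was -1.19 against -0.01 over all genes. HAGLR is an antisense RNA with 4 RefSeq start windows, of which the one printed above and another overlap that of HOXD1. It had 193 and 163 counts in LNCaP95 against 39 and 61 in LN95(KO). It fell 3.48-fold (log2 fold change -1.80, SE 0.19, edgeR adjusted p = 2.32e-07), with no overlap between the groups. Its partner HAGLROS had 62 and 60 counts against 32 and 28, just under the 2-fold threshold (log2 fold change -0.99, SE 0.23, edgeR adjusted p = 0.00118), and 37.6% of its exon bases are shared with other genes. HOXD1 itself had 1 counted read in all. By the annotation used here, 60.1% of its exon bases are shared with other genes, where reads could be left out.

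HOXC13-AS, antisense to HOXC13 at positions 54329112 to 54333427 of chromosome 12, had 81 and 91 counts in LNCaP95 against 31 and 33 in LN95(KO). It fell 2.62-fold (log2 fold change -1.39, SE 0.21, edgeR adjusted p = 1.95e-05), although against a 2-fold change (glmTreat) the adjusted p was 0.0973. HOXC13 lay in the same direction. Reads on exon bases shared with another gene were left out of the counts. By the annotation used here, such bases made up 7.30% of HOXC13 and 12.2% of HOXC13-AS. HOTAIRM1, beside HOXA2 at the anterior end of HOXA, had 140 and 134 counts against 76 and 74 (log2 fold change -0.84, SE 0.15, edgeR adjusted p = 0.000164), while the 10 HOXA genes held at most 15 reads in a library together. HOTAIR, the HOXC transcript known for its reported link to Polycomb at HOXD, had 3 and 0 counts against 3 and 1, within the level that a count of 0 allows in each library. The genes of the microRNAs of the clusters that were in the files had 0 reads, in libraries made from poly(A) RNA.

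**Figure D4:**
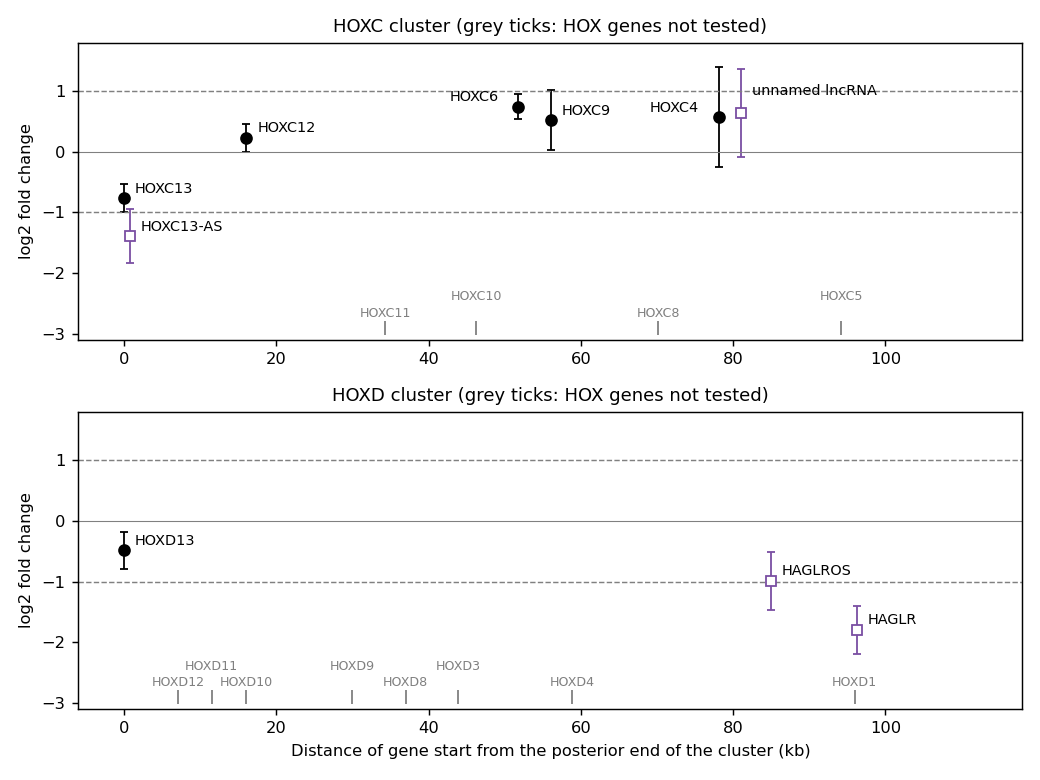
Log2 fold change, LN95(KO) over LNCaP95, against the distance in kb of the annotated gene start from the posterior end of HOXC (top) and HOXD (bottom), with 95% intervals. Circles are tested HOX genes, squares other tested transcripts inside the cluster and grey ticks HOX genes that were not tested. In HOXC the posterior HOXC13 lies at -0.77 and HOXC6, 51.8 kb from it by its longest transcript, at 0.75, while in HOXD the tested transcripts lie at -0.49, -0.99 and -1.80.

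The listed genes on either side of the clusters, many of them not close neighbours, showed no common direction. Of 32 listed symbols, some of them older names of genes also listed, 28 were in the files and 24 were tested. By the adjusted p, 9 were higher and 7 lower in LN95(KO) (66.7%, against 59.8% of all genes), and 1 was called, 4.17% of those tested against 18.0% of all genes. The called gene, PRAC1, is a small gene that is transcribed in prostate and distal colon. It lies posterior to the HOXB genes examined here, which do not include HOXB13. It had 1040 and 1042 counts in LNCaP95 against 505 and 491 in LN95(KO) (log2 fold change -1.03, SE 0.07, edgeR adjusted p = 9.01e-10). Its log2 fold change ranged from -1.07 to -0.97 over the settings tried, so the 2-fold call of PRAC1 did not hold under each of them. PRAC2 beside it lay at -0.19 (edgeR adjusted p = 0.289). Around HOXB, log2 fold changes were 0.71 for TTLL6, 0.30 for CALCOCO2, 0.14 for SNF8, 0.0042 for SNX11, -0.03 for CBX1 and -0.19 for UBE2Z. These genes lie 129 to 427 kb from the HOX genes examined. Around HOXC they were 0.56 for HNRNPA1, 0.44 for CBX5, 0.37 for ATP5MC2, 0.28 for SMUG1, 0.06 for COPZ1 and -0.30 for CALCOCO1. Their distances were 65 to 261 kb. Around HOXD they were 0.22 for LNPK and 0.08 for MTX2, which lie 90 and 78 kb away. Farther off, at 911 to 1022 kb, were ATP5MC3 (0.80), HNRNPA3 (0.35) and ATF2 (-0.41). Around HOXA they were 0.09 for HIBADH, -0.13 for SKAP2, -0.37 for SNX10, -0.43 for TAX1BP1 and -0.86 for JAZF1. SKAP2 lies 105 kb from HOXA, and the other genes named there 325 to 726 kb. EVX1 and EVX2, the homeobox genes at the ends of HOXA and HOXD, had 0 reads.

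Among the TALE partners of HOX proteins, MEIS1 rose and PKNOX2 fell. Of 11 genes, 10 were tested and 2 were called (20%, against 18.0% of all genes), 1 in each direction. MEIS1, which binds DNA together with HOX proteins, had 120 and 144 counts in LNCaP95 against 715 and 675 in LN95(KO). Both LN95(KO) libraries lay far above, and MEIS1 rose by 2.43 on the log2 scale (SE 0.11, edgeR adjusted p = 2.37e-12). PKNOX2, a TALE gene of the PREP family, had 203 and 210 counts against 3 and 14, and fell by 4.55 on the log2 scale (SE 0.28, edgeR adjusted p = 2.41e-10). By the adjusted p, TGIF1 was higher (log2 fold change 0.53) and TGIF2 lower (-0.52). PBX3, PBX4, PKNOX1, PBX2 and MEIS3 did not pass, with log2 fold changes from -0.63 to 0.50.

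Regulators of HOX transcription gave a single call. Of 20 tested Trithorax and MLL genes, 1 was called (5%, against 18.0% of all genes), and by the adjusted p 5 were higher and 8 lower (65%, against 59.8%). The called gene, KDM6A, encodes a demethylase that removes the repressive methyl mark laid by Polycomb, and had 2210 and 2199 counts in LNCaP95 against 837 and 898 in LN95(KO) (log2 fold change -1.31, SE 0.06, edgeR adjusted p = 2.32e-12). Of 25 Polycomb genes, 24 were tested and 0 were called with edgeR or DESeq2 (18.0% of all genes were with edgeR), although 14 had an unadjusted p under 0.05 in edgeR. By the adjusted p, 4 were higher and 9 lower (54.2%, near the 59.8% of all genes), and the median of the list was -0.05. Members of Polycomb repressive complex 1 lay nearest to the fold threshold, with log2 fold changes of -0.96 for PCGF2, -0.93 for PHC1 and -0.80 for BMI1.

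Homeobox genes outside the clusters had log2 fold changes from -4.34 to 2.25. Of 60 listed, 33 were tested, and 10 were called (30.3%, against 18.0% of all genes and 0 of 9 HOX genes), 3 higher and 7 lower. Their median absolute log2 fold change was 0.68, against 0.49 for the HOX genes and 0.37 over all genes. The genes called higher included DLX1 (2.25) and BARX2 (1.83). The genes called lower were PRRX1 (-4.34), EMX1 (-3.98), BARX1 (-2.59), IRX2 (-2.34), MSX2 (-2.26), EN1 (-1.39) and MSX1 (-1.35).

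**Figure D5:**
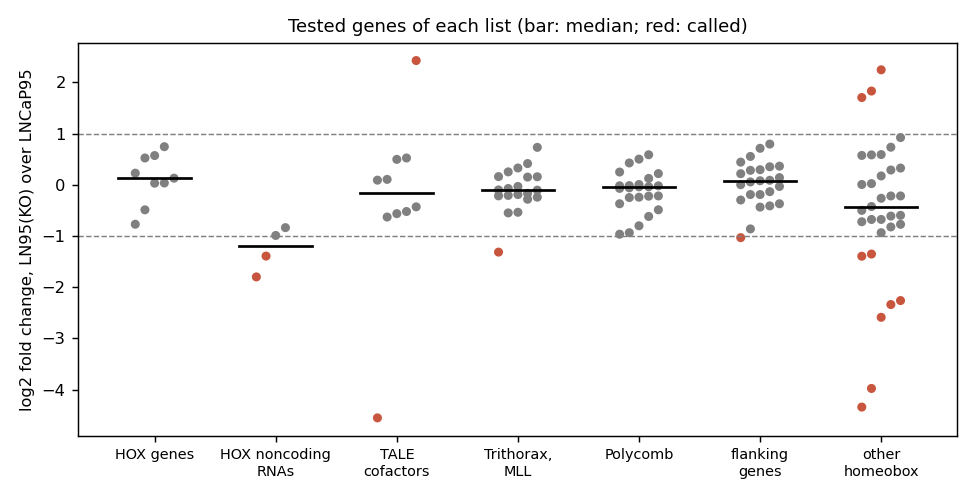
Log2 fold change, LN95(KO) over LNCaP95, of each tested gene in the 7 lists, with the list median as a black bar, called genes in red and a 2-fold change as dashed lines. The 9 HOX genes lie between -0.77 and 0.75, while the TALE genes MEIS1 (2.43) and PKNOX2 (-4.55) and 10 of 33 other homeobox genes lie outside a 2-fold change and were called.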

How the data were processed

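RNA was measured by RNA-Seq of poly(A) RNA in 4 libraries. Reads were mapped by the authors to hg19 using HISAT2 2.1.0, and they deposited raw counts of reads per gene, made with HTSeq without strand on GENCODE genes, which leaves out reads on more than 1 gene. HOX genes overlap one another and antisense RNAs, so such reads are lost from them. The 5 summary lines of each file were left out. Groups came from the labels. Symbols matched 59899 of 60880 identifiers, and the rest held 0.0575% of gene reads. Coordinates and exons came from GENCODE release 44 on GRCh37, the build of the counts. The paper names an earlier GENCODE release for the counting, so the shared exon bases given here may differ from those that the counting left out.

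Counts were filtered with filterByExpr (minimum count 10, minimum total 15), scaled by TMM and tested in edgeR 4.0.16 (R 4.3.3) by quasi-likelihood, with p-values adjusted over all genes tested. The thresholds, an adjusted p under 0.05 and a fold over 2, are the study's, which used DESeq2 (here version 1.42.0, as an alternative). The procedure was tested on simulated data. Alternatives were other scalings, filters and call rules, and leaving out each library. Intervals of count ratios are exact binomial (scipy 1.17.1). Sums, levels per length, shared exon bases and motif counts have no test.

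The members and gene lists were chosen with earlier results of these data known. Named genes are every tested HOX gene, the called genes of the noncoding RNA, cofactor, regulator and homeobox lists and every tested flanking gene. 1 called gene of those lists is left out, and cell type markers are given by sums and counts. Other names were chosen after their values were seen.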

Additional observations from a re-analysis of the deposited data

How the results depend on the processing

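No paired analysis was possible because no replicate number occurs in both groups. Over all genes, 2811 were called, 1687 when tested against a 2-fold change (glmTreat) and 9349 by the adjusted p alone. By the adjusted p alone, 1 HOX gene was called higher and 2 lower, in place of 0 and 0. Without the low-count filter 28 HOX genes were tested and 2 were called lower (HOXC11 and HOXD8). That fit called 3362 genes over all genes in place of 2811. Its share of genes tested was not computed, so the 2 calls have no share to be read against. The median log2 fold change of the 28 was 0.54 in place of 0.13. Leaving out each library gave 0 to 1 called lower (1, HOXD8, without LNCaP95 replicate 2 or LN95(KO) replicate 3) and a median of 0.058 to 0.28. HOX genes tested then numbered 10 or 11. HOXB6 and HOXB9 changed sign under upper-quartile scaling (-0.0051 and -0.0014), without LNCaP95 replicate 2 (-0.18 and -0.064) and without LN95(KO) replicate 3 (-0.24 and -0.044). Over the libraries left out, HOXB6 ranged from -0.24 to 0.28 and HOXB9 from -0.064 to 0.15. With the noncoding RNAs of a cluster added, log2 ratios of the cluster sums moved from 0.97 to -0.68 for HOXA, from 0.17 to 0.076 for HOXC and from -0.52 to -1.02 for HOXD. Leaving out a library moved the HOXD ratio to between -0.67 and -0.36, the latter without LNCaP95 replicate 1. Under a filter of CPM over 1, HOXB6 and HOXC4 were not tested. Of the values of single HOX genes under these alternatives, 97 kept their direction and their side of the call threshold, 6 changed sign and 3 became calls. The glmTreat and adjusted-p rules reuse the log2 fold changes of the main fit, so no sign could change under them. The 3 new calls came only from dropping the fold threshold. Depth limits what the counts of HOXB6, HOXC4 and the 28 untested HOX genes can show.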
